A study of Mus musculus with 63 samples.

Results

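Glutamate receptor genes were read in cells sorted from the cortex of burned and sham mice. The set held 10 of the 56980 genes in the raw count tables, chosen by symbol: the AMPA receptor subunits Gria1, Gria2, Gria3 and Gria4, the NMDA receptor subunits Grin1, Grin2a, Grin2b and Grin2c, and the metabotropic receptors Grm3 and Grm5. All 10 were found in all 4 tables, and all 10 passed the filter of 10 counts in total in every comparison.

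The mice were female C57BL/6J animals, 12 weeks old. Each was injected on both sides of the primary motor cortex with a 1:1 mixture of AAV5-CamKII-eGFP and AAV1-mDlx-mRuby2, viruses whose CaMKII promoter and mDlx enhancer are meant to mark excitatory and inhibitory neurons, and on the same day received a full thickness burn of the right flank over 7 to 8% of the body surface, or was shaved only (sham). Cells were sorted 5 weeks later. CaMKII positive cells (eGFP, labelled as excitatory neurons; 4 burn and 6 sham mice) and CaMKII-mDlx double-positive cells (eGFP and mRuby2, labelled as inhibitory neurons; 9 and 7) came from motor cortex, while ACSA2-positive cells (astrocytes; 9 and 8) and CD11b-positive cells (microglia; 8 and 7) came from the cortex caudal to it.

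Glutamate opens AMPA receptors, 4-subunit channels that carry most fast excitatory current, and NMDA receptors, which pair an obligatory GluN1 subunit (Grin1) with GluN2 subunits that set the kinetics and magnesium block. Metabotropic receptors signal through G proteins: mGlu3 (Grm3) lowers cyclic AMP, and mGlu5 (Grm5) releases calcium from internal stores. In the adult cortex most of these genes are known from neurons, but Grm3, Gria2 and Grin2c are also well known in astrocytes, where Grin2c is the most prominent GluN2 gene.

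Of 63 libraries, 58 from 17 mice were used, with 13346143 to 134703744 counts each. The 4 libraries of mouse 3, an animal with skin ulceration, were not used, nor was the double-positive library of mouse 8, which held 331215 counts. Levels are given as CPM, the count of a gene scaled by the total of its library. A count of 3, taken as the floor below which a gene could not be measured, was worth 0.0223 to 0.225 CPM.

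The labels of the CaMKII positive and double-positive sorts did not match their RNA. In the CaMKII positive libraries, 8 astrocyte markers summed to 13371 to 25178 CPM and 8 neuronal markers to 36.3 to 164 CPM. These libraries were mixed: 6 endothelial markers summed to 3613 to 10228 CPM and 8 microglial markers to 426 to 1946 CPM. Neurod6 and Neurod2, which define excitatory neurons, were each listed at 0 in 4 of the 10 libraries. In the double-positive libraries, 8 microglial markers summed to 15729 to 29969 CPM, 8 astrocyte markers to 485 to 1441 CPM and 6 inhibitory neuron markers to 0.615 to 3.38 CPM. Slc32a1, the transporter that loads GABA into vesicles, was at 0 in 12 of the 16, and Gad1 averaged 0.724 CPM. The ACSA2-positive libraries (astrocyte sum 35955 to 50269 CPM) and the CD11b-positive libraries (microglial sum 19144 to 30257 CPM) matched theirs. The populations are therefore called by their sort here, and no level below is given as that of a neuron. A total of RNA from many sorted cells cannot tell fewer cells of a type from less RNA per cell.

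What separates Gria2 from its family in function is a single codon in the stretch that lines the pore, where the transcript is edited from the codon in the genome, which reads glutamine, to one for arginine. The editing makes the channel nearly impermeable to calcium. The reference mouse sequences of 45 bases around that codon (GENCODE M21 transcripts, GRCm38) are shown because they let the 4 members be compared at the site, with the codon in capitals.
Gria1: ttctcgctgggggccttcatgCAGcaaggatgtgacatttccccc
Gria2: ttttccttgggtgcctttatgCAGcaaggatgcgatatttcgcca
Gria3: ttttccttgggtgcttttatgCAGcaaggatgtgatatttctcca
Gria4: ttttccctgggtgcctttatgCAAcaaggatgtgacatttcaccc
Gria1, Gria3 and Gria4 differed from Gria2 at 9, 3 and 6 of the 45 bases. The genome encodes glutamine at the codon in all 4 genes, and counts of whole genes carry no information on editing. No stretch of 50 bases in a transcript of Gria1, Grin2c or Grm3 was found in another gene. For Grin2a, 11.6% of such stretches also lay in transcripts of Aoc2 or Gm7328, and 13.5% of the exon bases of Grin1 lay opposite Grin1os, so the low counts of these members are less certain.

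The upstream sequences of Gria2, Grin2c and Grm3 are shown because these 3 had the highest levels per exon length in ACSA2-positive and CaMKII positive cells. They are the 250 bases before the RefSeq gene start, on the strand of the gene (GRCm38.p6), with GGGCGG (the GC box of Sp1) and GGACAG (a stretch of the RE1 silencer) in capitals on either strand.
Gria2, chr3:80802836-80803085, minus strand: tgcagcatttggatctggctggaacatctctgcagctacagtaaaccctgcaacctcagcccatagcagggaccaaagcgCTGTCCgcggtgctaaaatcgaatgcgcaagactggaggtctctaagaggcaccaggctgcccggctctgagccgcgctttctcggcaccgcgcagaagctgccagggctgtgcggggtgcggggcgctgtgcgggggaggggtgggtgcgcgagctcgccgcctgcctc
Grin2c, chr11:115267244-115267493, minus strand: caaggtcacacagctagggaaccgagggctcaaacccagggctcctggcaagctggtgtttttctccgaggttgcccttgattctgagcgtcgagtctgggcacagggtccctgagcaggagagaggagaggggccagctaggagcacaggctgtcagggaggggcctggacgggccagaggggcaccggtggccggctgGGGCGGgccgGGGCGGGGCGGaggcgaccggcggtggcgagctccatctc
Grm3, chr5:9725353-9725602, minus strand: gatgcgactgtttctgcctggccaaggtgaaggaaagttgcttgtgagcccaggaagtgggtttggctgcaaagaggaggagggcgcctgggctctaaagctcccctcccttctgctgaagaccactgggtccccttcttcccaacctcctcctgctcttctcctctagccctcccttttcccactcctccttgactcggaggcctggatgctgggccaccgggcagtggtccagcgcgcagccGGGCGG
GGGCGG was found 3 times before Grin2c, where the last pair overlap by 1 base, 1 time before Grm3 and not before Gria2, against 32.7% of 32851 promoters of the same length that hold it. GGACAG was found once before Gria2 (as CTGTCC) and in 18.7% of promoters. The windows of Gria2, Grin2c and Grm3 were 64.8, 68.8 and 62.4% G or C, with a median of 52.4% over all promoters. TATAAA (12.4% of promoters), TGACGTCA (1.55%) and TGACTCA (4.46%) were in none of the 3. The end of the Grm3 window matched no annotated transcript start.

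Among the AMPA subunits, Gria2 was by far the most abundant in the CaMKII positive and ACSA2-positive cells, also per length of exon, as given further on. In ACSA2-positive cells it ran from 333 to 774 CPM with a median of 539 and a mean of 523 ± 124 (SD, n = 17). In CaMKII positive cells the mean was close, 456 ± 301 (n = 10), but the mice were far apart, from 125 to 884 CPM with a median of 377. Double-positive cells held 5.35 to 14.3 CPM (mean 9.19 ± 3.29, n = 16), and CD11b-positive cells 0.250 to 9.28 CPM (3.05 ± 2.92, n = 15). The ranges of the first 2 populations lay wholly above those of the other 2. The gap between CaMKII positive and ACSA2-positive cells was smaller than the spread between mice (log2FC −0.43, SE 0.32, p.adj = 0.334), and in the 10 mice with both sorts Gria2 was higher in the CaMKII positive cells of 5 and lower in 5.

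Gria1, which forms calcium-permeable channels where Gria2 is missing, was highest in ACSA2-positive cells. It ran from 22.6 to 168 CPM there, with a median of 41.4 and a mean of 58.6 ± 42.6. In CaMKII positive cells it ran from 9.84 to 29.2 CPM (17.5 ± 7.08), and it was lower than in the ACSA2-positive cells in 10 of 10 mice. The double-positive and CD11b-positive cells did not differ in it beyond their spread, with means of 1.27 ± 0.775 and 1.27 ± 0.864 CPM (log2FC −0.04, SE 0.32, p.adj = 1).

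Gria3 and Gria4 had another order, with CaMKII positive cells highest. Gria3 ran from 5.72 to 15.9 CPM in them (12.0 ± 3.73) and from 0 to 9.57 CPM in ACSA2-positive cells (2.70 ± 2.07), and was higher in the former in 10 of 10 mice. Gria4 was at 11.4 ± 4.63 CPM in CaMKII positive cells, with a range of 6.38 to 20.8. In ACSA2-positive cells its mean of 4.96 ± 9.55 CPM rested on 1 library, sham mouse 8 with 39.7 CPM, since the median was 1.80. Both genes were lower in the rest. Gria3 was at 1.13 ± 1.09 CPM in double-positive cells (0 to 4.28) and 0.831 ± 0.690 CPM in CD11b-positive cells (0 to 2.30). Gria4 was at 0.605 ± 1.23 CPM in double-positive cells (0 to 5.13), with 3 of 16 libraries at 0, and at 0.196 ± 0.339 CPM in CD11b-positive cells (0 to 1.23), with 7 of 15 at 0.

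The NMDA subunits were led by Grin2c in all 4 sorts, also per length. In ACSA2-positive cells it ran from 627 to 1379 CPM with a median of 846 (867 ± 200), and in CaMKII positive cells from 212 to 1098 CPM with a median of 436 (514 ± 304), so that these ranges overlapped. Double-positive cells held 6.71 to 28.5 CPM (17.2 ± 7.70) and CD11b-positive cells 0.126 to 7.60 CPM (3.03 ± 2.59). Grin2c was higher in the double-positive than in the CD11b-positive cells in 14 of 14 mice that had both.

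Grin2b is the GluN2 gene of young forebrain neurons. Its mean was 61.1 ± 14.9 CPM in ACSA2-positive cells (35.5 to 93.7) and 31.2 ± 4.85 in CaMKII positive cells (24.5 to 39.0), lower in the latter in 10 of 10 mice. It was at 3.60 ± 1.88 CPM in double-positive and 1.73 ± 1.21 CPM in CD11b-positive cells. Grin1 was low in every sort, with 6.27 ± 2.04 CPM in CaMKII positive, 5.50 ± 3.45 in ACSA2-positive, 1.50 ± 1.02 in double-positive and 0.528 ± 0.465 in CD11b-positive cells. The first 2 did not differ beyond their spread (log2FC 0.09, SE 0.48, p.adj = 0.942). Grin2a, the main GluN2 gene of mature cortical neurons, was at 5.81 ± 4.76 CPM in CaMKII positive and 3.39 ± 4.35 CPM in ACSA2-positive cells and at most 4.22 CPM in any other library.

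Grm3 was the steadiest member in ACSA2-positive cells. It ran from 546 to 926 CPM there with a median of 706 (SD 109), and from 192 to 514 CPM in CaMKII positive cells (373 ± 102), and these ranges did not overlap (nor did those of 5.82% of all genes). In double-positive cells it was at 15.4 ± 6.43 CPM and in CD11b-positive cells at 2.39 ± 0.650 CPM, also without overlap. Grm5 had its highest mean in CaMKII positive cells, at 10.8 ± 3.84 CPM (2.03 to 15.0), against 8.48 ± 5.31 CPM in ACSA2-positive cells (0 to 24.9). Its level was 0.838 ± 0.891 CPM in double-positive and 0.276 ± 0.318 CPM in CD11b-positive cells, where 6 of 15 libraries held none. Across the members, 5 had their highest mean in ACSA2-positive and 5 in CaMKII positive cells, and 9 had their lowest in CD11b-positive cells.

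**Figure D1:**
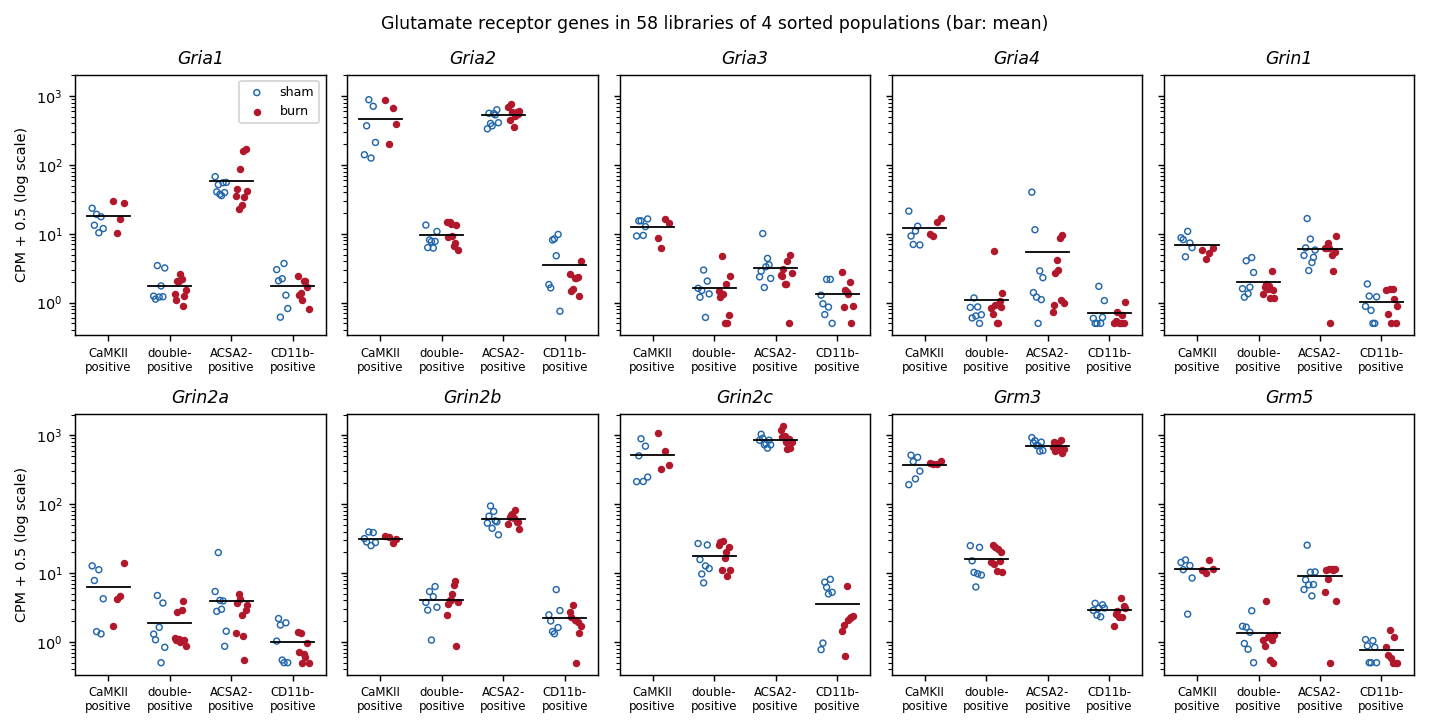
CPM plus 0.5 on a log scale (vertical axis) of each receptor gene in the 4 sorted populations, with 1 point per mouse (open blue, sham; filled red, burn) and a bar at the mean. Gria2, Grin2c and Grm3 sit at 125 to 1379 CPM in the CaMKII positive and ACSA2-positive cells and at most at 28.5 CPM in the other 2, and burn and sham points mix in every column.

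Because a long transcript gives more reads, the members were set against each other per kilobase of exon (lengths from GENCODE M21). On that scale Grm3 was the highest member, with 233 ± 35.7 CPM per kilobase in ACSA2-positive and 122 ± 33.5 in CaMKII positive cells. Grin2c followed with 172 ± 39.7 and 102 ± 60.3, and Gria2 with 33.6 ± 7.96 and 29.3 ± 19.3. The length joined all annotated exons of a gene: 3049 bases for Grm3, 5037 for Grin2c and 15548 for Gria2. Which transcripts the cells used was not measured, so this order and the shares below depend on the annotation. By CPM without regard to length, Grin2c had a higher mean than Grm3 in both sorts. As shares of the summed level of all 10 members per length, Grm3 took 51.5 ± 5.61% in ACSA2-positive, 49.3 ± 10.0% in CaMKII positive, 49.97 ± 5.89% in double-positive and 40.1 ± 13.7% in CD11b-positive cells. Grin2c took 37.7, 36.5, 33.6 and 25.5% in the same order. Over the same sorts the mean CPM of Grm3 differed up to 297-fold, between ACSA2-positive and CD11b-positive cells.

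Within the AMPA family, Gria2 made up 78.3 ± 12.0% of the per-length sum in CaMKII positive, 76.6 ± 12.2% in ACSA2-positive, 60.6 ± 13.6% in double-positive and 33.6 ± 22.7% in CD11b-positive cells. Gria1 was the next in ACSA2-positive cells with 20.9 ± 10.2%, where Gria3 and Gria4 together were minor (0.633 and 1.86%). In CaMKII positive cells the remainder was spread over Gria1 (10.1%), Gria4 (7.22%) and Gria3 (4.41%). Of the sum of the 3 GluN2 members Grin2a, Grin2b and Grin2c, without Grin2d, Grin2c made up 97.9 ± 1.24, 98.4 ± 0.508, 92.7 ± 5.89 and 74.6 ± 26.6% in the CaMKII positive, ACSA2-positive, double-positive and CD11b-positive cells. The wide spread in CD11b-positive cells came with low counts, from 5 to 139 for Grin2c.

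**Figure D2:**
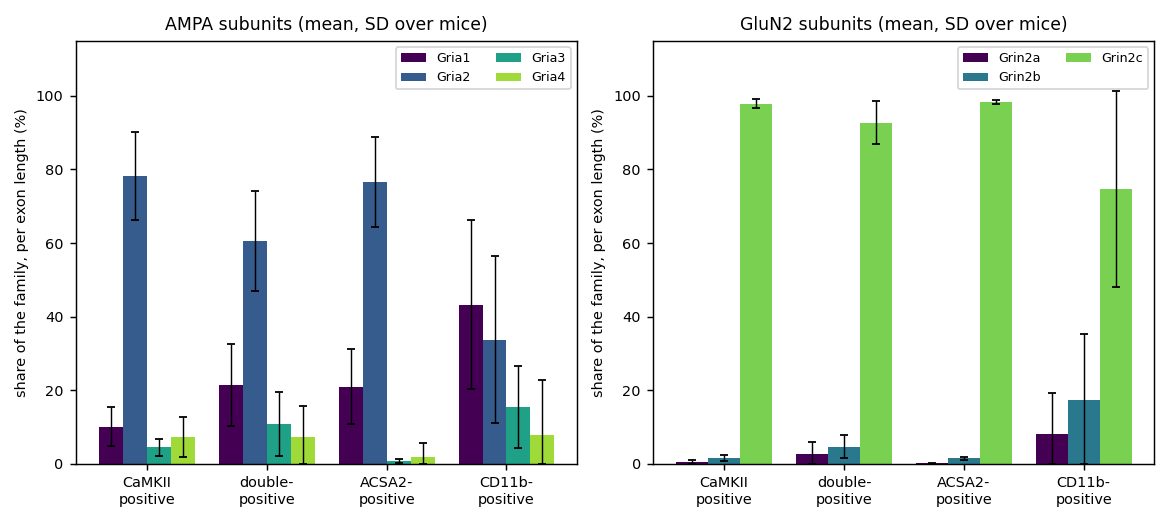
Share (%) of each subunit in the summed level of the members of its family, per exon length, as the mean over mice with the SD as error bar: AMPA subunits on the left, Grin2a, Grin2b and Grin2c on the right (Grin2d is not in the sum), in the 4 sorted populations. Gria2 leads the AMPA subunits except in CD11b-positive cells, and Grin2c makes up 74.6 to 98.4% of those 3 GluN2 genes on average.

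Differences between populations were tested in 1 fit over the 58 libraries (edgeR quasi-likelihood test with treatment and batch as terms), and a call needed a p.adj no higher than 0.05 together with a log2FC of 1 or more in size. Between the motor cortex sorts, all 10 members were higher in CaMKII positive than in double-positive cells, where 45.2% of 33150 genes were called and 27.7% were called higher. The median log2FC of the members was 3.71, against 0.14 over all genes. Gria2 had the largest difference (log2FC 5.44, SE 0.36, p.adj = 2.48e-20) and Grin1 the smallest (1.96, SE 0.48, p.adj = 0.000352). Grin2a lost its call in batch 3 alone. For 7 of the 10 the CPM ranges did not overlap, against 18.8% of all genes. The 8 astrocyte markers were all higher as well, with a median log2FC of 4.55 (3.20 to 4.74), and the 8 microglial markers all lower, at −4.47. All 6 endothelial, 6 mural and 6 oligodendrocyte precursor markers were higher too, with medians of 6.10, 5.45 and 4.42. So were 6 of 8 neuron markers (median 2.06), while 5 of 6 border macrophage markers were lower (median −2.86). The part of these cell types in the receptor differences was not tested.

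The sorts of the caudal cortex had the largest median difference. All 10 members were higher in ACSA2-positive than in CD11b-positive cells, where 53.8% of genes were called and 32.1% were called higher. Differences in log2FC of 8.28 (SE 0.42) for Grin2c, 8.26 (SE 0.22) for Grm3 and 7.57 (SE 0.39) for Gria2 were the largest, and that of Gria3 the smallest (1.76, SE 0.52, p.adj = 0.00247). The median of the members was 5.14 and that of all genes 0.24. The ranges of 5 members did not overlap, against 23.4% of genes. Astrocyte markers had a median log2FC of 8.70 in this contrast.

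The remaining 4 contrasts set motor cortex against caudal cortex, so region and sort cannot be told apart in them. All 10 members were higher in CaMKII positive than in CD11b-positive cells (45.5% of genes called, 29.6% higher), with log2FC from 3.45 for Grin1 to 7.33 for Grin2c, and the CPM ranges of 9 did not overlap, against 19.2% of genes. Against ACSA2-positive cells, 9 of 10 were lower in the double-positive cells (52.5% of genes called, 29.1% lower), from −1.35 for Gria3 to −5.86 for Gria2. Grin2a, the exception, had a log2FC of −1.01 (SE 0.58, p.adj = 0.120). It was called without a batch term, with all 63 libraries and without mouse 22. Gria3 lost its call without mouse 13 (log2FC −1.07), and Gria3 and Grin1 lost theirs in batch 3 alone.

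CaMKII positive and ACSA2-positive cells were the most alike in these genes. Here 4 of 10 members were called, where 18.4% of genes were (14.1% higher and 4.34% lower). Gria3 was higher in CaMKII positive cells (log2FC 2.03, SE 0.55, p.adj = 0.00301). Gria1 (−1.95, SE 0.34, p.adj = 5.72e-06), Grin2b (−1.14, SE 0.28, p.adj = 0.00105) and Grm3 (−1.06, SE 0.18, p.adj = 3.41e-06) were lower. All 8 astrocyte markers were lower too, within −1.55 to −1.14. Other cell types moved the other way: all 8 microglial, all 6 endothelial and 5 of 6 oligodendrocyte precursor markers were higher in CaMKII positive cells, with median log2FC values of 4.57, 2.97 and 3.29. Of the 8 neuron markers, 2 were called higher and 0 lower there, with a median of 0.78. Their part in the receptor differences was not tested. Grin2b lost its call with library size as the only scaling and in batch 3 alone. Grm3 stood at the limit for the fold: its log2FC was −0.99 with mouse as a block (p.adj = 1.46e-05), and its size fell short of 1 without mouse 2 or mouse 8. It also fell short of 1 with DESeq2, with the size factors of DESeq2 in edgeR, with library size as the only scaling, with the filterByExpr filter on low counts, in batch 3 alone and with all 63 libraries. The call held without a filter on low counts, without a batch term and without any of the other 15 single mice. Grin2c was on the other side, at −0.94 (SE 0.35, p.adj = 0.0297), and was called with mouse as a block (−1.13, p.adj = 0.0161), without a batch term and without mouse 2 or mouse 16.

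The double-positive and CD11b-positive cells, both rich in microglial RNA, still differed in 6 of 10 members, all higher in the former, where 7.98% of genes were called (6.37% higher and 1.62% lower). They were Grm3 (log2FC 2.64, SE 0.18, p.adj = 1.25e-17), Grin2c (2.58, SE 0.35, p.adj = 8.03e-08), Gria2 (1.71, SE 0.32, p.adj = 0.000103), Grm5 (1.64, SE 0.55, p.adj = 0.0406), Grin1 (1.49, SE 0.45, p.adj = 0.0226) and Grin2b (1.04, SE 0.27, p.adj = 0.00543). Only Grm3 had ranges that did not overlap (0.241% of genes). In the same contrast 6 of 8 astrocyte markers were called higher, with a median log2FC of 2.85, while none of the 8 microglial markers was called (median −0.24). Whether astrocyte RNA accounts for the receptor differences was not tested. Gria2, Grm5 and Grin1 lost their calls in batch 3 alone. Grm5 also lost its call with mouse as a block (1.68, p.adj = 0.0923), without a batch term and when any 1 of 8 mice was left out. Grin2b lost it with all 63 libraries and when any 1 of 4 mice was left out, and Grin1 without mouse 18.

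**Figure D3:**
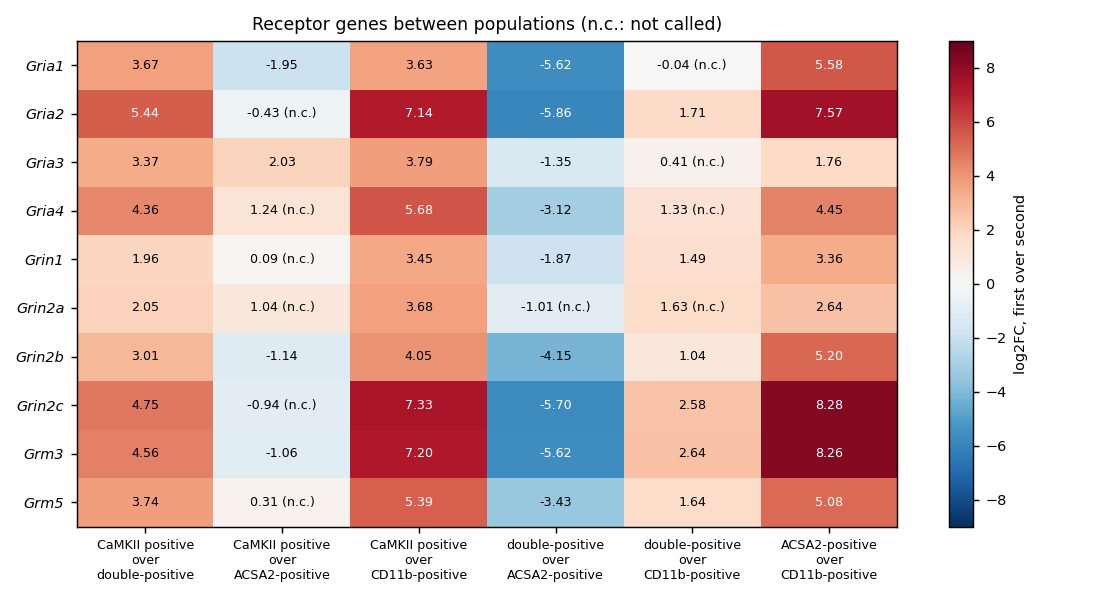
Log2FC (colour and number) of each receptor gene in the 6 contrasts between sorted populations, the first named over the second, with n.c. where the gene was not called. The contrasts of CD11b-positive or double-positive cells with CaMKII positive or ACSA2-positive cells hold the large values, up to 8.28. CaMKII positive over ACSA2-positive cells stays within −1.95 to 2.03, and double-positive over CD11b-positive cells within −0.04 to 2.64.

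Burn against sham was the comparison the study was built for, and it was made within each population with sequencing batch as a term. None of the 10 receptor genes was called in any of the 4 populations. By the same test 0.0% of all genes were called in each (28107, 26707, 27930 and 26079 genes tested). At an unadjusted p under 0.05 there were 0, 0, 0 and 1 members in the CaMKII positive, double-positive, ACSA2-positive and CD11b-positive cells, where 3.9, 7.01, 10.7 and 7.81% of all genes passed. DESeq2 called none of the members either, and 3, 2, 27 and 80 genes in all. The ranges of burn and sham mice overlapped for every member in every population (0.37, 0.0, 0.0143 and 0.0153% of all genes did not overlap).

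In CaMKII positive cells Gria2 was at 198, 385, 663 and 876 CPM in burn mice 20, 24, 22 and 2, and at 125, 140, 211, 369, 709 and 884 CPM in sham mice 17, 8, 19, 15, 18 and 16. Each group thus covered nearly the whole range, with a log2FC of 0.39 (SE 0.61, p.adj = 0.9999). Grin2c followed the same mice, from 327 to 1098 CPM in burn and 212 to 890.0 CPM in sham (log2FC 0.26, SE 0.50). Without mouse 8, and in batch 3 alone, both signs turned: Gria2 stood at −0.14 in each and Grin2c at −0.25 in each. Grm3 spanned 388 to 418 CPM in the 4 burn mice and 192 to 514 CPM in the 6 sham mice (log2FC 0.26, SE 0.24). Its log2FC was 0.05 without mouse 2 and 0.06 in batch 3 alone. The other 7 members had log2FC values from −0.57 (Grin1, SE 0.43) to 0.36 (Gria1, SE 0.31).

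Double-positive cells gave the same picture at low level. Gria2 ran from 5.35 to 14.3 CPM with a median of 8.88 in burn mice and from 5.70 to 12.9 CPM with a median of 7.25 in sham mice (log2FC 0.18, SE 0.24). Medians for Grm3 were 14.4 and 9.72 CPM (log2FC 0.39, SE 0.27, p.adj = 0.866). Single mice moved these values: Gria2 stood at 0.01 (SE 0.24) without mouse 23 and Grm3 at 0.71 (SE 0.24) without mouse 18, and neither was called. The 3 batch 1 libraries of this sort were all from burn mice, so batch 1 adds nothing to the comparison. Grm5 (log2FC −0.92, SE 0.89) and Grin1 (−0.69, SE 0.47) had the lowest values, at group means under 2 CPM. Without mouse 18, Grm5 stood at −0.40 (SE 0.92).

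In ACSA2-positive cells the errors were narrow for Grin2c, Grm3, Grin2b and Gria2 and wide for the low members, such as Gria3 (SE 0.62) and Gria4. Gria2 ran from 350.4 to 774 CPM with a median of 579 in burn mice and from 333 to 630.0 CPM with a median of 470.0 in sham mice (log2FC 0.22, SE 0.14, p.adj = 0.648). For Grin2c the burn mice held 627 to 1379 CPM with a median of 878 and the sham mice 650 to 1035 CPM with a median of 801 (log2FC 0.06, SE 0.10, p.adj = 0.925). Grm3 medians were 674 and 742 CPM (log2FC −0.16, SE 0.11, p.adj = 0.708). Without mouse 8 the log2FC was 0.08 for Gria2, −0.01 for Grin2c and −0.07 for Grm3. In batch 3 alone it was 0.06, 0.02 and 0.01 in the same order. Gria1 had burn mice 21, 23 and 11 at 160, 168 and 85.5 CPM, above all sham mice, and the other 6 burn mice at 22.6 to 44.2 CPM, so the groups overlapped (log2FC 0.49, SE 0.34, p.adj = 0.678; 0.97 in batch 3 alone, SE 0.38, p.adj = 0.470). The sign for Gria4 rested on sham mouse 8: its log2FC was −0.19 (SE 1.13) with that mouse and 1.47 (SE 0.94) without it, and neither was called.

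CD11b-positive cells held the largest difference of a member with over 1 CPM in both groups. Gria2 was at 0.742 to 3.56 CPM with a median of 1.78 in burn mice and 0.250 to 9.28 CPM with a median of 4.29 in sham mice. Means were 1.74 ± 0.889 and 4.55 ± 3.74 CPM, with a log2FC of −1.24 (SE 0.54, unadjusted p = 0.0304, p.adj = 0.639). Sham mice 15, 16, 17 and 18 were high, at 7.62, 7.95, 4.29 and 9.28 CPM, and sham mice 8, 13 and 19 were at 1.33, 1.14 and 0.250 CPM, within or under the burn range. Leaving out single mice moved the log2FC between −1.55 and −1.01, with p.adj never under 0.578. Grin2c, at 0.126 to 6.00 CPM in burn and 0.274 to 7.60 CPM in sham mice, had a log2FC of −0.74 (SE 0.50, p.adj = 0.871). It stood at −1.18 (SE 0.55) without burn mouse 20 and at −1.15 (SE 0.39, p.adj = 0.607) in batch 3 alone, and was called in neither. In batch 3, where sham mice were numbered 15 to 19 and burn mice 20 to 24, Grin2c was at 4.48 to 7.60 CPM in mice 15 to 19, at 6.00 CPM in burn mouse 20 and at 1.58 to 1.88 CPM in burn mice 21 to 24. Astrocyte markers summed to 242 to 327 CPM in mice 15 to 19, 356 CPM in mouse 20 and 205 to 245 CPM in mice 21 to 24. Their part in the result was not tested.

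**Figure D4:**
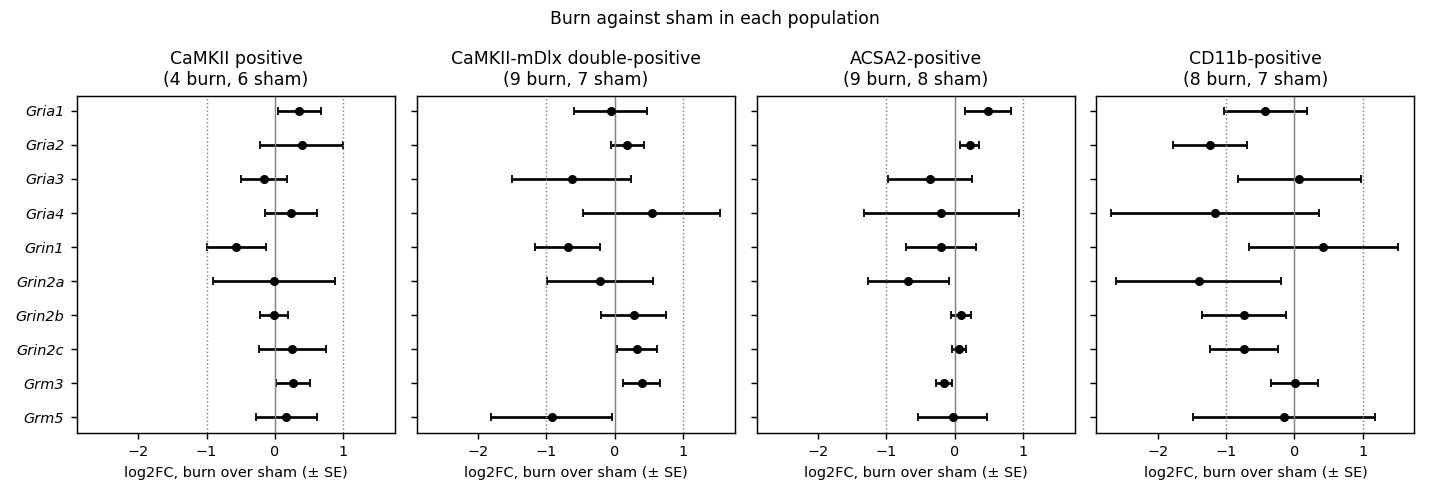
Log2FC of burn over sham (horizontal axis, point) with its standard error (bar) for each receptor gene in the 4 sorted populations, and dotted lines at −1 and 1. Bars are shortest for Grin2c, Grm3, Grin2b and Gria2 in ACSA2-positive cells, and no gene was called in any panel.

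Whether the effect of burn differed between the sorts of one tissue was tested as an interaction. No member was called for CaMKII positive against double-positive cells (0.0362% of genes were, and no member had an unadjusted p under 0.05, which 8.13% of genes had) or for ACSA2-positive against CD11b-positive cells (0.0%). In the latter, Gria2 had the largest value, a difference of log2FC of 1.52 (SE 0.55, unadjusted p = 0.00809, p.adj = 0.259), followed by Grin2c with 1.30 (SE 0.61, p.adj = 0.460). Those 2 were the members with an unadjusted p under 0.05, which 9.52% of genes had.

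Since Gria2 varied 7.06-fold between mice in CaMKII positive cells alone, each member was set against the marker content of its own library, with the mean log2(CPM + 0.5) of the neuron, astrocyte, oligodendrocyte precursor and microglia lists. Over 160 relations, 7 had p.adj under 0.05 for Pearson's r (permutation test, 100000 resamples, two-sided). Both values of a point come from 1 library, so that a larger share of one cell type lowers the CPM of the rest.

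In CaMKII positive cells Grin2c fell as the neuron markers rose (r = −0.912, p.adj = 0.0096; Spearman's rho = −0.855, p.adj = 0.0973; n = 10), and so did Gria2 (r = −0.840, p.adj = 0.0496; rho = −0.806, p.adj = 0.152). Mouse 16 had the lowest neuron sum but one, 38.6 CPM, with 884 CPM of Gria2, and mouse 17 the highest, 164 CPM, with 125 CPM. Without the 2 libraries farthest from the median of the list, r was −0.862 for Grin2c and −0.766 for Gria2, and in batch 3 alone −0.888 and −0.796 (n = 8). Gria2 also rose with the markers of oligodendrocyte precursors (r = 0.877, p.adj = 0.0365; rho = 0.830, p.adj = 0.128; 0.750 without the 2 farthest and 0.915 in batch 3). With the astrocyte markers neither relation passed in this sort (Grin2c r = 0.406, p.adj = 0.547; Gria2 r = 0.469, p.adj = 0.507). Without the 2 farthest libraries those values were −0.117 and −0.138, and in batch 3 alone 0.496 and 0.526. The endothelial sum was 10228 CPM in mouse 17 and 3613 to 7102 CPM in the other 9. Gria2 and Grin2c moved together across the 10 mice (r = 0.964, a description of libraries that share a total).

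In double-positive cells Grm3 and Grin2c rose with the astrocyte markers (r = 0.928 and 0.863, p.adj = 0.0016 for both; rho = 0.915 and 0.888, p.adj = 0.0008 for both; n = 16). Without the 2 farthest libraries r was 0.910 and 0.794, and in batch 3 alone 0.902 and 0.842 (n = 10), where after adjustment only that of Grm3 passed. Mouse 16, with the lowest astrocyte sum of 485 CPM, had 5.79 CPM of Grm3, and mouse 12, with the highest of 1441 CPM, had 24.5. Grin2c in CD11b-positive cells also rose with the astrocyte markers (r = 0.768, p.adj = 0.0365; rho = 0.736, p.adj = 0.0973; n = 15; 0.740 without the 2 farthest, 0.693 in batch 3). In ACSA2-positive cells Grin2c fell as the microglia markers rose (r = −0.803, p.adj = 0.00587; rho = −0.772, p.adj = 0.0251; n = 17; −0.728 without the 2 farthest), but r was −0.363 in batch 3 alone (n = 10), so the relation did not hold within that batch. Microglial sums were 72.8 to 155 CPM in batch 3 and 44.1 to 78.7 CPM in the other batches.

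**Figure D5:**
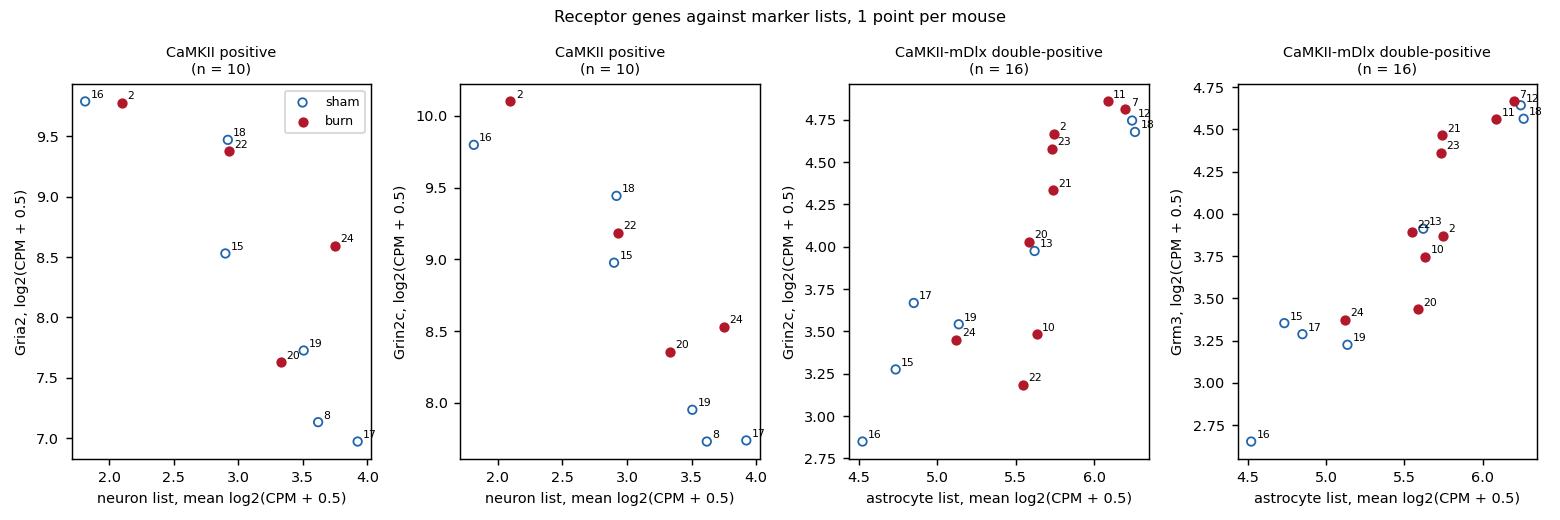
Level of a receptor gene against the mean level of a marker list, both as log2(CPM + 0.5), with 1 numbered point per mouse (open blue, sham; filled red, burn): Gria2 and Grin2c against neuron markers in CaMKII positive cells (n = 10), and Grin2c and Grm3 against astrocyte markers in double-positive cells (n = 16). The first 2 panels fall (r = −0.840 and −0.912), the last 2 rise (0.863 and 0.928), and burn and sham mice lie along the same bands.

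Genes whose level over the 58 libraries was most like that of a member were, among 16813 genes with a mean of at least 1 CPM, Plpp3 and Ttyh1 for Grm3 (r = 0.995 for both), Daam2 and Ntsr2 for Grin2c (0.994 for both) and Gm3764 and Psd2 for Gria2 (0.989 and 0.988). Ntsr2 encodes a receptor for neurotensin and Daam2 a regulator of actin. These values are mostly set by the 4 sorts, which all points share. With the mean of each population taken out, Fgfr3, a receptor of fibroblast growth factors, was nearest to Grin2c (r = 0.896), Gm3764 to Gria2 (0.817) and Fam163a to Grm3 (0.755). For Grin2a they were Dnm1 (0.700), which pinches off synaptic vesicles, and Sv2b (0.699), a protein of those vesicles.

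Around the receptors, 50 further genes of glutamate signalling in 4 lists were counted in the same fits. None was called between burn and sham in the CaMKII positive, double-positive, ACSA2-positive or CD11b-positive cells (49, 48, 50 and 46 tested). Between CaMKII positive and double-positive cells 38 were higher and 1 lower, against 27.7% and 17.5% of all genes, with a median log2FC of 2.88 (all genes 0.14). Between ACSA2-positive and CD11b-positive cells 42 were higher and 1 lower, against 32.1% and 21.7% of all genes, with a median of 3.60 (all genes 0.24). CaMKII positive cells were higher than ACSA2-positive cells in 5 and lower in 5, where 14.1% and 4.34% of all genes were. Double-positive cells were higher than CD11b-positive cells in 12 and lower in 0, where 6.37% and 1.62% of all genes were.

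Of the other receptor subunits, Grik5, a kainate receptor subunit, had the highest mean CPM in every sort, without regard to length, from 128 ± 20.2 in ACSA2-positive and 87.5 ± 34.8 in CaMKII positive to 7.61 ± 2.47 in double-positive and 4.20 ± 1.31 in CD11b-positive cells. Among auxiliary subunits, Shisa9 was at 59.4 ± 16.5 CPM and Cacng7, a protein that helps AMPA receptors to the surface, at 54.8 ± 9.03 CPM in ACSA2-positive cells. Shisa7 stood apart, at 2.64 to 7.27 CPM on average in all 4 sorts, and the CaMKII positive cells exceeded the ACSA2-positive cells in it (log2FC 1.52, SE 0.37, p.adj = 0.00082). Of the anchoring genes, Dlg4, which encodes PSD-95, averaged 148 ± 54.2 CPM in ACSA2-positive and 124 ± 35.7 CPM in CaMKII positive cells. Dlg1 varied little, from 79.7 ± 7.26 CPM in CD11b-positive to 119 ± 15.2 CPM in CaMKII positive cells. The glutamate transporter gene Slc1a2, an astrocyte marker by the list used here, fell from 23035 ± 3172 CPM in ACSA2-positive and 11229 ± 2232 CPM in CaMKII positive cells to 419.9 ± 178 in double-positive and 57.3 ± 25.1 CPM in CD11b-positive cells. Glul, which makes glutamine from glutamate, was far more even, at 7746 ± 865 CPM and 5006 ± 746 CPM in the first 2 and 1902 ± 205 and 1847 ± 193 CPM in the other 2. It did not differ between double-positive and CD11b-positive cells beyond the spread (log2FC 0.02, SE 0.08, p.adj = 0.968), whereas Slc1a2 did (2.83, SE 0.20, p.adj = 3.29e-17).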

How the data were processed

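RNA of 4 FACS-sorted populations was sequenced as ribosome-depleted, stranded total RNA libraries in 3 batches (mice 1 to 10, 11 to 14 and 15 to 24). Per the methods, the authors trimmed reads with fastp, aligned them with STAR to GRCm39 and counted them per gene. They deposited raw counts (used here) and normalised log2 tables (not used, since they hold the same libraries after a transformation). The strand setting of the counting is not given in the sources used here. Each library was 1 mouse and 1 sort, and 0 columns of the count tables were left unmapped. The members and gene lists were chosen with earlier results of these data known. Named genes were the 10 members, the highest gene by mean CPM of each of 4 pathway lists per population, and the 2 genes most like each member. Single marker genes were also named where the reading of a sort turned on them.

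Counts were tested with the quasi-likelihood test of edgeR 4.0.16 (limma 3.58.1, R 4.3.3) with TMM scaling, genes of at least 10 counts in total and Benjamini-Hochberg adjustment over all genes tested, with batch as a term. DESeq2 1.42.0 was an alternative, as were other scalings, filters, batch 3 alone, no batch term, all 63 libraries, and leaving out each mouse. P-values of burn against sham measure the spread between mice. Those between populations and of the interactions measure the spread between libraries, pooled over the sorts, with libraries of the same mouse counted separately. Libraries of one mouse from different sorts came from the same animal, so mouse was tried as a block between populations: 21 of 74 pairs of libraries deviated together with r above 0.1, and median r lay between 0.0175 and 0.0827. CPM was the count over the total of the library, the pseudocount was 0.5, and totals of 13346143 to 134703744 counts set the precision. Floors cover counting error only. Marker relations were computed with Python 3.11.15 and numpy 2.4.6. Opposite-strand reads cannot be told apart where counting ignored strand.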

Additional observations from a re-analysis of the deposited data

Results flagged for a closer look

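Dixon's test at the 95% level was run in 80 groups, each a member in burn or sham mice of one sort. It flagged 12 values as standing too far from the other mice. About 1 in 20 groups would be flagged by chance if values were normally distributed. These were untransformed CPM, skewed and in part at 0 for low members, so that rate may not hold here. Each of the 12 values was the highest of its group. Sham mouse 13 held 4 of them in ACSA2-positive cells: Gria3 at 9.57 CPM, Grin1 at 16.1, Grin2a at 19.3 and Grm5 at 24.9. That library also had the highest sums of neuron markers (254 CPM, against 17.7 to 101 CPM in the other 16) and excitatory neuron markers (1491 CPM, against 11.5 to 244). Their part in these values was not tested. Sham mouse 8 had 39.7 CPM of Gria4 in ACSA2-positive cells, with 0 to 10.9 CPM in the other sham mice.

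In double-positive cells, burn mouse 10 stood apart for Gria3 (4.28 CPM), Gria4 (5.13 CPM) and Grm5 (3.40 CPM), and its sum of oligodendrocyte precursor markers was 99.1 CPM, against 2.73 to 30.3 CPM in the other 15 libraries. Burn mouse 22 had 2.38 CPM of Grin1. In CD11b-positive cells the values were low throughout: Gria4 at 0.509 CPM in burn mouse 24, Grin2b at 5.26 CPM in sham mouse 17 and Grin2c at 6.00 CPM in burn mouse 20.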

How the results depend on the processing

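No member was called between burn and sham under any of 9 alternatives or in 58 fits that left out 1 mouse, and no call turned its direction in any alternative. Counts of called members that moved by over 1.5 times were those of CaMKII positive against ACSA2-positive cells, 4 as reported, 2 with library size as the only scaling and 2 in batch 3 alone, and of double-positive against CD11b-positive cells, 6 as reported, 3 in batch 3 alone and 3 to 6 without 1 mouse (3 without mouse 18). Library size as the only scaling moved the median log2FC of all genes from −0.03 to 0.15 in the first of these, so that Grm3 and Grin2b fell short of the limit for the fold there. With mouse as a block these contrasts had 4 and 5 members called, with the changes of Grin2c, Grm3 and Grm5 given above, and the block changed no other call. No paired analysis was possible between burn and sham because each mouse received 1 treatment. Of the 7 marker relations, 7 passed with a pseudocount of 1, 5 with the median over the list and 4 with TMM-scaled CPM. In batch 3 alone 2 relations passed, of which 1 was among the 7. With TMM-scaled CPM Grin1 had its highest mean in ACSA2-positive cells. Members under 1 CPM had few or 0 counts in many libraries, which limits the precision of their differences, that of Grm5 between double-positive and CD11b-positive cells included.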
